A study of Arabidopsis thaliana with 46 samples.

Results

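The circadian clock of Arabidopsis thaliana was followed through its 10 core genes, CCA1, LHY, PRR9, PRR7, PRR5, TOC1, GI, ELF3, ELF4 and LUX. The set is defined by gene ID, and its members are 10 of the 33016 gene IDs counted in the N-dose and the root and protoplast experiments and of the 33341 counted in the cycloheximide (CHX) experiment. All 10 passed the filter on low counts in each of the 3 experiments. The study sought the direct targets of transcription factors (TFs) that respond early to nitrogen (N), and the libraries used here tested how CHX and N supply bear on its assay, with the TF TGA4, and how protoplasts compare with roots. The 46 poly(A) RNA-seq libraries of Col-0 roots fall into 14 groups. In the TARGET assay, root protoplasts (cells freed of their walls) were transfected with an empty vector (EV) or with a vector that expresses TGA4 fused to a part of the glucocorticoid receptor, and transfected cells were sorted by their fluorescence. Dexamethasone (DEX) lets the fusion protein enter the nucleus, and CHX stops the synthesis of new protein. EV_0N, EV_5N and EV_60N carried EV, while TGA4_0N, TGA4_5N and TGA4_60N carried TGA4 (n = 3 in each of the groups), and all were protoplasts with 35 µM CHX and 10 µM DEX, where 0N stands for 20 mM KCl, 5N for 5 mM KNO3 (with KCl beside it, by the methods) and 60N for 20 mM KNO3 plus 20 mM NH4NO3. EV_mChx, EV_pChx, TGA4_mChx and TGA4_pChx (n = 3 each) were protoplasts without (mChx) or with (pChx) 35 µM CHX, all with 10 µM DEX. Their labels give no N dose, and by the methods they had the 60N supply. Root_0N, Root_60N, Protoplast_0N and Protoplast_60N (n = 4 each) were whole roots and protoplasts labelled as free of CHX and DEX. By the methods these protoplasts carried EV and were sorted, while the whole roots came from liquid culture. The labels give an age of 10 days for all plants, and the methods a slightly higher age for those of the whole roots. Wells of one vector were split from the same transfected cells, so a vector cannot be told apart from its transfection, and the p-values of those comparisons measure the spread between wells.

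The plant clock is a loop of repressors that take turns over the day. The Myb-like factors CCA1 and LHY peak around dawn and repress genes of the evening. The pseudo-response regulators PRR9, PRR7, PRR5 and TOC1 then appear one after the other through day and evening and repress CCA1 and LHY, and the evening complex of ELF3, ELF4 and LUX represses PRR9 and other day genes at night. Levels of these transcripts therefore depend on the hour of harvest. The labels give no hour. By the methods roots were treated and harvested together with the protoplasts of their experiment. Those protoplasts had before been freed of their walls, transfected and kept overnight, while the roots stayed on plants. The light during the overnight step is not stated, and whether both had the same clock phase was not tested. No common hour is stated across the experiments, so tests are made only within an experiment. Values set side by side across experiments can differ with the hour.

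The members lie on chromosomes 1, 2, 3 and 5 (coordinates of the TAIR10.1 assembly with its RefSeq annotation). CCA1 (AT2G46830, chromosome 2 from 19245591 to 19248915, plus strand, up to 8 exons) and LHY (AT1G01060, chromosome 1 from 33365 to 37871, minus strand, up to 10 exons) are the closely related morning repressors. PRR9 (AT2G46790, chromosome 2 from 19232607 to 19235179, plus strand) lies upstream of CCA1 on the same strand. PRR7 (AT5G02810, chromosome 5 from 637681 to 642030, minus strand) and PRR5 (AT5G24470, chromosome 5 from 8356204 to 8358546, minus strand) are its day relatives, and TOC1 (AT5G61380, chromosome 5 from 24674963 to 24678550, plus strand, 6 exons), also named PRR1, acts in the evening. GI (AT1G22770, chromosome 1 from 8061751 to 8067790, plus strand, 14 exons) encodes a large evening protein that steadies the F-box protein ZTL and takes part in day-length sensing. ELF3 (AT2G25930, chromosome 2 from 11058944 to 11063324, plus strand, 4 exons) is the scaffold of the evening complex, ELF4 (AT2G40080, chromosome 2 from 16734294 to 16734953, minus strand, 1 exon) is its small partner, and LUX (AT3G46640, chromosome 3 from 17183042 to 17186959, plus strand, up to 3 exons) is the Myb-like factor that binds DNA for it. The gene model of LUX overlaps that of AT3G46650 on the other strand over 1507 bases and the model of ELF3 overlaps AT2G25940 over 24 bases. The counting is not stated to use strand, so reads from an overlap cannot be assigned. AT3G46650 was at most 1.66 CPM (counts per megacount of the scaled library total) in any library, and 0 in all 8 libraries labelled Protoplast and in EV_mChx, and AT2G25940 ranged from 3.46 to 17.9 CPM.

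Promoter words that clock proteins are known to bind were looked up in the 500 bases before each gene's annotated start, on both strands. The words were the evening element AAAATATCT and the CCA1 binding site AAAAATCT (both bound by CCA1 and LHY), the G-box CACGTG, the 2 LUX words GATACG and GATTCG, and TGACG, the core of sites bound by TGA factors such as TGA4. None of these words contains another. Over all 27443 protein-coding genes searched, 4.438% of the windows held an evening element, 12.48% a CCA1 binding site, 9.347% a G-box, 8.756% GATACG, 15.42% GATTCG and 32.02% TGACG. The evening element was present in PRR5 (2 copies), TOC1 and LUX, the CCA1 binding site in LHY, PRR9 and PRR5, and the G-box in CCA1, LHY, PRR9 (2 copies), PRR7 and LUX. GATACG was present in ELF3 and ELF4, and GATTCG in PRR9, TOC1 and LUX. TGACG was present in PRR9, PRR7 (225, 128 and 85 bases before the start), PRR5, TOC1 (134 and 56 bases before it) and LUX. The window of GI held none of the words, which says only that these letters are not in it. Each sequence is the RefSeq TAIR10.1 sequence on the strand of its gene, from 5′ to 3′, with the word or its reverse complement in capitals.
TOC1 evening element, chr5:24674802-24674830, plus strand: aaatatcatgAGATATTTTctccaagatg
PRR5 evening element, distal copy, chr5:8358820-8358848, minus strand: caattctactAGATATTTTttcaaatcca
PRR5 evening element, proximal copy, chr5:8358715-8358743, minus strand: gattttttctAGATATTTTcttttctcca
LUX evening element, chr3:17182979-17183007, plus strand: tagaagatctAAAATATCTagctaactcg
LHY CCA1 binding site, chr1:38283-38310, minus strand: gaaaagatgaAGATTTTTatacagacgc
PRR9 CCA1 binding site, chr2:19232281-19232308, plus strand: gctgaaaaaaAAAAATCTaccttttaga
CCA1 G-box, chr2:19245388-19245413, plus strand: gtgtatcagaCACGTGtcgacaaact
LHY G-box, chr1:37936-37961, minus strand: acaatatcacCACGTGtcgatctgcg
ELF3 LUX word, chr2:11058851-11058876, plus strand: tgacattttaCGTATCctaaaagaaa
ELF4 LUX word, chr2:16735030-16735055, minus strand: atatcagataGATACGtctacgtgag
TOC1 TGA core, distal copy, chr5:24674819-24674843, plus strand: ttctccaagaTGACGtggccttttc
TOC1 TGA core, proximal copy, chr5:24674897-24674921, plus strand: ttattgtccaCGTCAtctccttggc
The G-boxes of CCA1 and LHY are both followed by tcga, and the evening element and the distal TGA core of TOC1 lie next to each other, so that their printed windows overlap. The window of the PRR5 TGA core, which is not printed, likewise overlaps that of its distal evening element. A match is a description of the letters and no test of binding.

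Library totals ranged from 7835278 to 16214169 counts in the N-dose experiment, from 2397664 to 8177924 in the CHX experiment and from 9677719 to 17478925 in the root and protoplast experiment, and 3 counts were worth at most 1.25 CPM in the smallest library. TGA4 itself was at 28.9 to 57.4 CPM in the EV libraries of the N-dose and CHX experiments and at 5161 to 25994 CPM in the libraries with the TGA4 vector, as the labels say. It was at 29.5 to 36.5 CPM in whole roots and at 54.0 to 228 CPM in the libraries labelled Protoplast. The 8 libraries labelled Protoplast went against their CHX label, and the methods too say that they received neither CHX nor DEX. Among 1104 genes that rose over 5-fold with CHX in the CHX experiment and were counted in both gene sets, the median level was 3.14 to 3.53 CPM in EV_mChx and 39.0 to 46.9 CPM in EV_pChx, and it was 34.8 to 55.4 CPM in the libraries labelled Protoplast and 1.83 to 3.28 CPM in the whole roots. Among 89 genes that fell over 5-fold with CHX, the medians were 23.4 to 30.6 CPM in EV_mChx and 1.90 to 5.05 CPM in EV_pChx. They were 1.75 to 2.94 CPM in the libraries labelled Protoplast and 12.3 to 23.3 CPM in the whole roots. Gene by gene, 71.2% of the 1104 and 96.63% of the 89 lay nearer EV_pChx than EV_mChx in Protoplast_0N. In Protoplast_60N it was 68.39% and 95.51%, and in EV_0N, which had CHX, 64.4% and 94.38%. These values are set across experiments that were scaled separately. By the medians all 8 libraries stood on the side of the CHX-treated cells, so no value without them can be given. Whether tissue, protoplasting or CHX sets a difference from roots cannot be told apart. Of 10 root cell type markers, whose sum ranged from 273 to 396 CPM in whole roots and from 175 to 210 CPM in libraries labelled Protoplast, 7 were lower in the latter at 0N and 8 at 60N (46% and 44.5% of all genes were lower), and the cortex marker CO2 was at 0 in every Protoplast_60N library and in every library of the other protoplast experiments. Of 10 markers of green tissue, 9 were tested and 8 were lower in libraries labelled Protoplast than in roots at 0N, and the sum of 164 to 287 CPM there was nearly all CA1. In bulk samples, fewer cells of a type and less RNA per cell cannot be told apart.

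In whole roots, the clock genes ranked by CPM per kilobase of exon with ELF4 on top and CCA1 and LHY at the bottom. Exon lengths were taken from the RefSeq annotation of TAIR10.1 (3916 bases for LUX and 1677 for PRR5). The annotation used for counting is not given, so the order between genes, here and in the protoplasts, leans on these lengths. ELF4 stood at 61.4 ± 6.48 CPM per kb (SD, n = 4) in Root_0N and 147 ± 9.19 in Root_60N. TOC1 followed with 27.8 ± 1.61 and 53.1 ± 7.36 CPM per kb. CCA1 was at 2.72 ± 0.507 CPM per kb in Root_0N and 2.35 ± 0.553 in Root_60N, and LHY at 2.15 ± 0.369 and 1.48 ± 0.254. In Root_0N the order was ELF4, TOC1, GI, PRR5, PRR7, ELF3, LUX, PRR9, CCA1 and LHY, where the ranges over libraries overlapped only for TOC1 and GI and for CCA1 and LHY. In Root_60N, TOC1, PRR7, ELF3, PRR5 and GI overlapped from each to the next, and the others were separate from their neighbours.

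In the libraries labelled Protoplast, TOC1 led instead, with 99.5 ± 6.79 CPM per kb at 0N and 88.8 ± 3.07 at 60N (SD, n = 4). CCA1 came next with 57.7 ± 12.3 and 55.7 ± 12.3 CPM per kb, and PRR5 followed with 39.4 ± 3.65 and 38.9 ± 3.38. LUX was lowest in both groups, with 6.90 ± 0.458 CPM per kb at 0N and 7.27 ± 0.645 at 60N, below ELF3 in every library. Between these ends, the ranges of each gene and the next overlapped, apart from PRR5 and PRR9 at 60N. TOC1 and CCA1 were also the top pair in EV_0N (58.9 ± 3.26 and 37.0 ± 2.22 CPM per kb, n = 3) and in EV_pChx (56.1 ± 2.27 and 46.7 ± 3.66). In EV_mChx the pair was reversed, with CCA1 at 47.2 ± 1.94 and TOC1 at 41.8 ± 3.92 CPM per kb, and GI next at 35.2 ± 2.15.

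**Figure D1:**
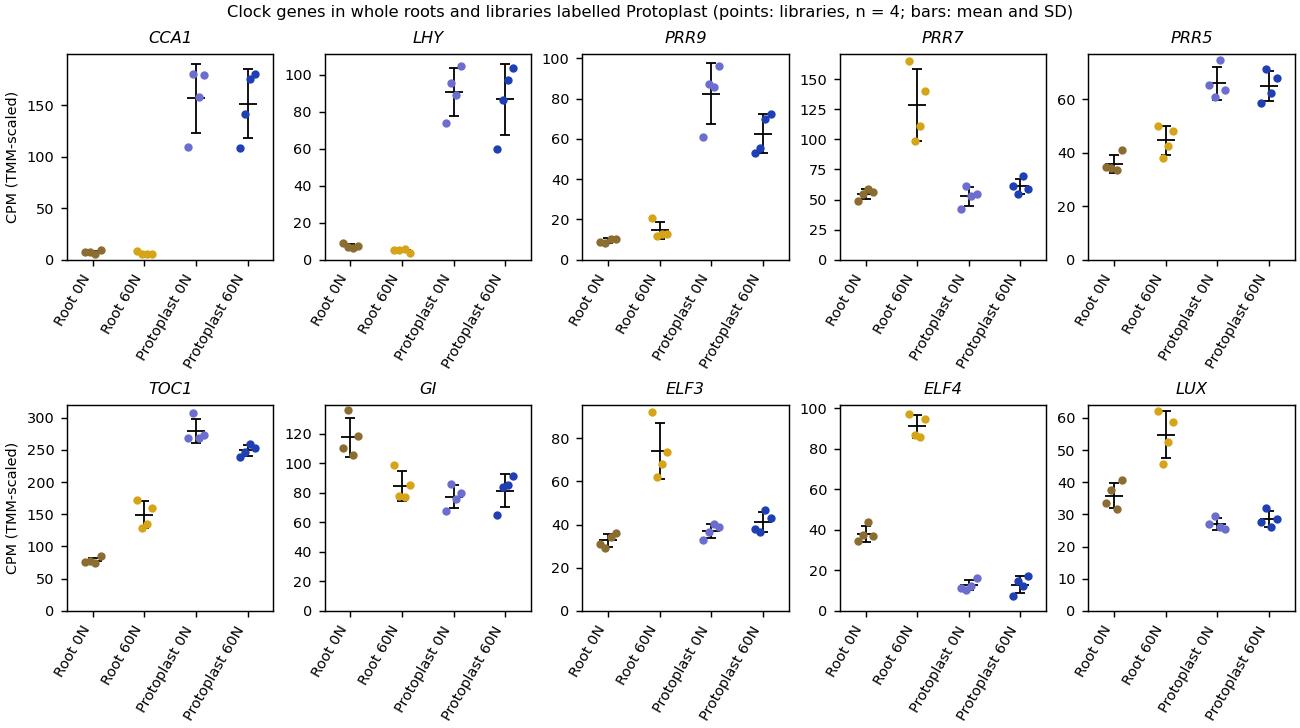
CPM (vertical axes, each from 0) of the 10 clock genes in whole roots and in libraries labelled Protoplast at 0N and 60N. Points are libraries (n = 4 per group) and bars are the mean and SD. CCA1 and LHY stay under 9.2 CPM in every root library, and the 60N roots lie above the 0N roots for PRR7, TOC1, ELF3 and ELF4.

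To see whether N supply changed the levels of clock transcripts in intact roots, Root_60N was compared with Root_0N. Roots were harvested at a single time, so a shift in phase cannot be told apart from a change in level. Of the 10 clock genes, 7 were higher at 60N, 2 were lower and CCA1 did not pass the test (edgeR's quasi-likelihood test, Benjamini-Hochberg adjusted p under 0.05). In this comparison 43.2% of the 21007 genes tested were called, 17.4% higher and 25.7% lower. ELF4, PRR7 and ELF3 rose by 2.40, 2.36 and 2.26-fold and TOC1 by 1.91-fold, while the morning gene LHY fell by 1.46-fold and GI by 1.39-fold. The median log2 fold change of the 10 members was 0.61, and that of all genes tested was -0.09. The summed root cell type markers also rose with N, from 273 to 312 CPM in the Root_0N libraries to 350 to 396 CPM in the Root_60N libraries, with 4 of 10 called higher and none lower. Of 9 green markers tested 3 were higher. The part of these changes in the clock gene values was not tested.

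Among the evening complex genes, ELF4 was at 34.3, 37.2, 43.7 and 36.9 CPM in the 0N roots. In the 60N roots it was at 97.1, 86.7, 85.9 and 94.9 CPM. Every 60N library lay above every 0N library, with a log2 fold change of 1.26 ± 0.14 (SE, adjusted p = 4.56e-07). ELF3 was at 31.03, 29.3, 34.4 and 36.0 CPM at 0N and at 92.2, 62.0, 68.1 and 73.7 CPM at 60N, again with no overlap (1.18 ± 0.11, adjusted p = 3.53e-08). LUX was at 33.5, 37.4, 31.7 and 40.6 CPM at 0N and at 62.1, 45.8, 52.6 and 58.7 CPM at 60N. It was the least changed of the 3 (0.61 ± 0.10, adjusted p = 4.75e-05), and its lowest 60N library was above its highest 0N library.

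Among the pseudo-response regulators, PRR7 was at 48.5, 54.3, 58.8 and 55.9 CPM in the 0N roots and at 165, 98.5, 111 and 140 CPM in the 60N roots. The 60N libraries were all higher and spread more widely (log2 fold change 1.24 ± 0.14, adjusted p = 2.43e-07). TOC1 was at 76.2, 77.1, 74.2 and 84.6 CPM at 0N and at 172, 129, 135 and 160 CPM at 60N, with no overlap (0.93 ± 0.10, adjusted p = 8.92e-08). PRR9, the first of the series to appear after dawn, was at 8.99, 8.32, 10.3 and 10.5 CPM at 0N and at 20.5, 11.9, 12.9 and 12.8 CPM at 60N. Its highest value came from 1 library, and without Root_60N replicate 1 the log2 fold change fell from 0.61 to 0.40 and still passed the test (adjusted p = 0.0443). PRR5 was at 34.8, 34.5, 33.5 and 40.9 CPM at 0N and at 50.2, 38.2, 42.6 and 48.0 CPM at 60N. The groups overlapped, and its call (0.32 ± 0.10, adjusted p = 0.0135) was lost without Root_60N replicate 1 (0.26, adjusted p = 0.0537).

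The morning genes were near the bottom of their range in roots. CCA1 was at 7.62, 7.10, 5.76 and 9.10 CPM at 0N and at 8.62, 6.06, 5.61 and 5.33 CPM at 60N, and the groups overlapped (log2 fold change -0.21 ± 0.21, adjusted p = 0.439). LHY was at 9.14, 6.81, 6.22 and 7.22 CPM at 0N and at 5.52, 5.30, 5.61 and 3.76 CPM at 60N. Its 60N libraries were all lower, and the log2 fold change was -0.54 ± 0.18 (adjusted p = 0.0214). The call was lost without Root_0N replicate 1 (-0.43) and without Root_60N replicate 4 (-0.42). GI was at 110, 136, 106 and 118 CPM at 0N and at 98.8, 77.5, 76.8 and 85.4 CPM at 60N, each below each 0N library (-0.47 ± 0.11, adjusted p = 0.00169).

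**Figure D2:**
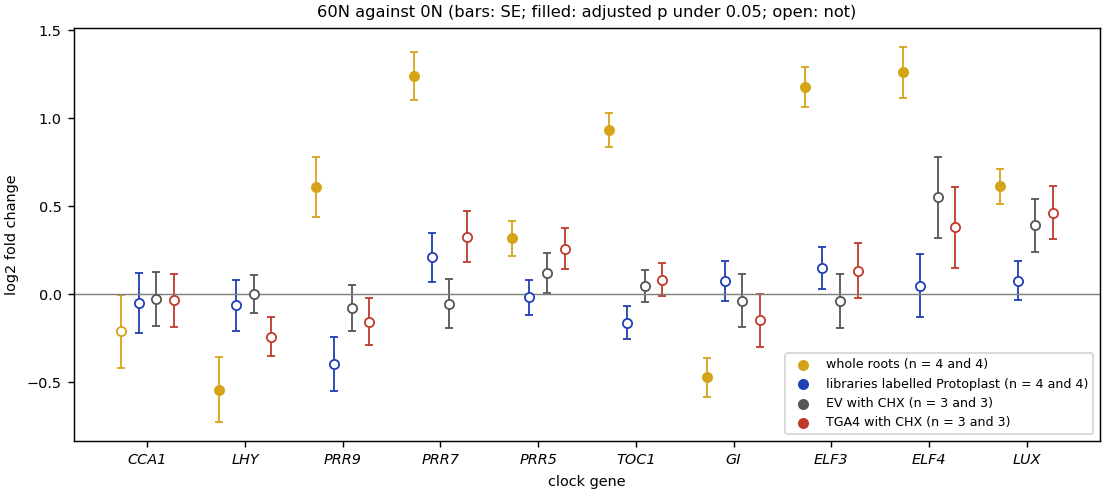
Log2 fold change of 60N against 0N (vertical axis) for each clock gene (horizontal axis) in whole roots, in libraries labelled Protoplast, and in EV and TGA4 protoplasts with CHX. Bars are the SE, and filled points passed an adjusted p of 0.05. The filled points are all from whole roots, where PRR7, ELF3 and ELF4 lie above 1.

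Of 29 further clock genes, 27 were tested in roots and 15 rose and 1 fell with 60N, with a median log2 fold change of 0.44. The called genes with the largest changes were RVE2, RVE1 and LNK2. RVE1 and RVE2 encode Myb-like relatives of CCA1, and LNK2 a coactivator that works with such factors. RVE2 rose from 6.12 ± 0.571 CPM in Root_0N to 46.6 ± 9.13 CPM in Root_60N (SD, n = 4; log2 fold change 2.93 ± 0.17, adjusted p = 2.07e-11). RVE1 changed by 1.38 ± 0.19 and LNK2 by 1.36 ± 0.14 on the log2 scale. Of 9 genes of clock output and day-length response, 3 rose and 2 fell, a share near the 43.2% of all genes called. CDF2 (1.51 ± 0.12) and CDF1 (1.28 ± 0.20), which encode DOF repressors of the flowering gene CO, were higher at 60N. GRP8, which encodes an RNA-binding protein under clock control, fell by 1.12 on the log2 scale, from 768 ± 52.2 to 354 ± 50.5 CPM.

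The same N contrast was then made in the libraries labelled Protoplast, where no clock gene was called by edgeR or by DESeq2, and 2.41% of all genes were called by edgeR. At an unadjusted p under 0.05, 1 member, PRR9, would pass, with a log2 fold change of -0.40 ± 0.15 (adjusted p = 0.209). PRR9 was at 60.8, 87.1, 85.8 and 96.3 CPM at 0N and at 52.9, 55.7, 69.9 and 72.2 CPM at 60N, with overlap. TOC1 was at 268, 308, 268 and 274 CPM at 0N and at 239, 247, 259 and 253 CPM at 60N. Its 60N libraries were all lower, by a log2 fold change of -0.16 ± 0.09 (adjusted p = 0.426). The other 8 members overlapped and changed by between -0.06 (LHY) and 0.21 (PRR7) on the log2 scale. None of the 27 further clock genes tested was called. Of the 9 output genes, CDF1 alone was called, from 17.0 ± 2.60 CPM at 0N to 32.9 ± 7.41 CPM at 60N (log2 fold change 0.96 ± 0.15, adjusted p = 0.000979).

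Whether the N response differed between the 2 kinds of sample was tested as an interaction, the protoplast response minus the root response. It was called for 7 of the 10 clock genes, 6 of them lower and GI higher, against 24.4% of all genes (10.2% lower and 14.2% higher). The largest differences were those of ELF4 (-1.21 ± 0.23, adjusted p = 0.000481), TOC1 (-1.10 ± 0.13, adjusted p = 3.46e-06), PRR7 (-1.03 ± 0.19) and ELF3 (-1.03 ± 0.16). PRR9 (-1.01 ± 0.23) and LUX (-0.54 ± 0.15) followed. The difference of GI was 0.55 ± 0.16 (adjusted p = 0.0157), and this call was lost without any of 6 single libraries labelled Protoplast (replicates 1, 3 and 4 at 0N, and 2, 3 and 4 at 60N). It was also lost without the filter on low counts (0.44, adjusted p = 0.0558). PRR5 missed the threshold (-0.34 ± 0.14, adjusted p = 0.0912) and passed it in 9 of 21 alternatives. Among these were DESeq2 (-0.39), no filter on low counts (-0.44) and leaving out Protoplast_0N replicate 2 (-0.50). CCA1 (0.16 ± 0.27) and LHY (0.48 ± 0.24) did not pass. Of the 27 further clock genes tested, 14 had a lower response in the libraries labelled Protoplast and none a higher one, led by RVE2 (-2.84 ± 0.23), RVE1 (-1.52 ± 0.26) and LNK3 (-1.48 ± 0.28).

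Compared directly at 0N, 5 clock genes were higher and 3 were lower in the libraries labelled Protoplast than in roots, where 86.4% of all genes were called, 40.4% higher and 46% lower. The morning genes differed most. CCA1 was at 109, 181, 158 and 180 CPM in Protoplast_0N, against 5.76 to 9.10 CPM in the roots, which was 21.2-fold higher (log2 fold change 4.40 ± 0.20, adjusted p = 8.41e-15). LHY was at 73.7, 95.6, 89.0 and 105 CPM, which was 12.4-fold higher (3.63 ± 0.17), and PRR9 was 8.67-fold higher (3.12 ± 0.17). TOC1 was 3.58-fold higher (1.84 ± 0.10) and PRR5 1.84-fold higher (0.88 ± 0.10). With no scaling factors the log2 fold change of PRR5 turned to -0.08, and the median of all genes moved from -0.15 to -1.10. Relative to the median PRR5 stood at 1.03 in both, as it must when all genes shift alike, so its direction rests on the scaling. ELF4 was at 11.4, 10.4, 12.5 and 16.2 CPM and thus 3.01-fold lower (-1.59 ± 0.16), GI 1.52-fold lower and LUX 1.33-fold lower. PRR7 (-0.04 ± 0.14) and ELF3 (0.18 ± 0.12) overlapped with roots and were not called, and ELF3 turned to -0.77 with no scaling factors and was called as higher without Protoplast_0N replicate 1 (0.33) or replicate 2 (0.30).

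At 60N, 5 clock genes were higher and 4 lower in the libraries labelled Protoplast, against 85.3% of all genes called, 40.8% higher and 44.5% lower. CCA1 was at 108, 142, 175 and 180 CPM and 23.7-fold higher than in Root_60N (log2 fold change 4.56 ± 0.21). LHY was at 59.7, 86.4, 97.0 and 104 CPM and 17.2-fold higher (4.11 ± 0.18). ELF4 was at 7.53, 14.5, 12.1 and 17.4 CPM, all far below the 60N roots, and 6.98-fold lower (-2.80 ± 0.16). PRR7, ELF3 and LUX were 2.11, 1.80 and 1.92-fold lower, and GI overlapped (-0.06 ± 0.11, adjusted p = 0.639). PRR9 was 4.32-fold, TOC1 1.67-fold and PRR5 1.46-fold higher, and with no scaling factors TOC1 turned to -0.08 and PRR5 to -0.28, where the median of all genes moved from -0.12 to -0.95. Relative to those medians TOC1 stood at 0.86 in both, which a shift of all genes alike fixes. The directions of TOC1 and PRR5 thus rest on the scaling. The further clock genes were also split, with 17 of 27 higher and 5 lower at 0N and 16 higher and 8 lower at 60N. LNK3, of the same coactivator family as LNK2, was at 1.58 ± 0.338 CPM in Root_0N and 106 ± 9.32 CPM in Protoplast_0N. GRP7, the clock-controlled partner of GRP8, was at 1353 ± 11.4 CPM in Root_0N and 16.4 ± 3.56 CPM in Protoplast_0N, a log2 fold change of -6.37 ± 0.16. EFL4, a relative of ELF4, was lower by a log2 fold change of -4.25 ± 0.38 at 0N. The part of CHX, of the root marker levels given above and of protoplasting with its overnight step in these differences cannot be told apart.

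The effect of CHX itself was measured in the CHX experiment. In EV cells, 7 of the 10 clock genes were called, 2 higher and 5 lower with CHX, where 48.1% of the 18674 genes tested were called, 23.6% higher and 24.5% lower. In TGA4 cells 7 were called as well, 1 higher and 6 lower, against 45.9% of all genes, 23.4% higher and 22.6% lower. GI and the 3 genes of the evening complex were lower with CHX in both vectors, as was PRR7, and TOC1 was higher. CCA1 and PRR5 were called in neither. The median log2 fold change of the members was -0.23 in EV and -0.50 in TGA4, beside -0.02 and -0.01 for all genes.

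GI was at 143, 150 and 161 CPM in EV_mChx and at 112, 98.1 and 105 CPM in EV_pChx. In TGA4 cells it was at 167, 192 and 198 CPM without and at 104, 105 and 118 CPM with CHX. All libraries with CHX were below all without it, with log2 fold changes of -0.53 ± 0.11 (adjusted p = 0.00026) in EV and -0.77 ± 0.11 (adjusted p = 4.3e-06) in TGA4. LUX was at 48.1, 59.4 and 72.7 CPM in EV_mChx and at 28.7, 29.9 and 44.7 CPM in EV_pChx. In TGA4 cells it was at 46.4, 44.1 and 51.4 CPM without and at 33.8, 28.1 and 28.6 CPM with CHX. It fell in both (-0.83 ± 0.17 and -0.66 ± 0.18), with no overlap within a vector. ELF4 fell from 11.9, 13.8 and 20.8 CPM to 9.16, 8.47 and 9.74 CPM in EV (-0.78 ± 0.23, adjusted p = 0.00847). In TGA4 it fell from 11.98, 15.9 and 16.5 CPM to 9.19, 7.99 and 10.9 CPM (-0.70 ± 0.26, adjusted p = 0.0299). The EV call of ELF4 was lost without EV_mChx replicate 3 (-0.51), its highest library, and the TGA4 call without any of 4 single libraries and with DESeq2 (-0.67).

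ELF3 was at 67.0, 78.4 and 67.9 CPM in EV_mChx and at 64.0, 51.0 and 54.9 CPM in EV_pChx (log2 fold change -0.33 ± 0.12, adjusted p = 0.0329). PRR7 was at 37.5, 46.2 and 55.1 CPM in EV_mChx and at 37.5, 34.3 and 35.4 CPM in EV_pChx (-0.38 ± 0.15, adjusted p = 0.0375). Both of these EV calls were lost with DESeq2, with RLE normalization, with the compared groups alone and without EV_mChx replicate 2, EV_pChx replicate 2 or EV_pChx replicate 3, at -0.33 to -0.39 for PRR7 and -0.25 to -0.30 for ELF3. The PRR7 call was also lost without EV_mChx replicate 3 (-0.24), and the lowest EV_mChx library of PRR7 all but met its highest EV_pChx library. In TGA4 cells the same genes fell by more (PRR7 -0.54 ± 0.16, adjusted p = 0.00648; ELF3 -0.46 ± 0.13, adjusted p = 0.0055), but the difference between vectors was not called for either. TOC1 was at 119, 105 and 127 CPM in EV_mChx and at 162, 150 and 160 CPM in EV_pChx, a rise by 1.34-fold (0.43 ± 0.10, adjusted p = 0.00121). In TGA4 cells it rose from 136, 130 and 132 CPM to 161, 169 and 169 CPM (0.33 ± 0.10, adjusted p = 0.0124). This call was lost without TGA4_mChx replicate 2 (0.31) and without the filter on low counts (0.30, adjusted p = 0.0547). With no scaling factors the TGA4 value of TOC1 turned to -0.003 and the median of all genes to -0.34, and relative to that median TOC1 stood at 0.33 in both. A shift of all genes alike fixes that last value, so the direction of TOC1 in TGA4 rests on the scaling. In EV the TOC1 value was 0.15 with no scaling factors, and its call was lost (adjusted p = 0.236). PRR9 was called in EV alone, from 11.9, 12.6 and 18.6 CPM to 18.7, 25.6 and 22.6 CPM (0.61 ± 0.21, adjusted p = 0.0195). This call was lost without EV_mChx replicate 1, EV_mChx replicate 2 or EV_pChx replicate 2, at 0.50 to 0.51. It was also lost with no scaling factors (0.34, adjusted p = 0.177). LHY was called in TGA4 alone, from 112, 131 and 123 CPM to 88.2, 73.7 and 79.8 CPM (-0.60 ± 0.13, adjusted p = 0.000434). The interaction of vector and CHX was called for no member by edgeR or DESeq2 (0.129% of all genes by edgeR), and LHY was the 1 member with an unadjusted p under 0.05 (-0.53 ± 0.18, adjusted p = 0.516).

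CCA1 differed little with CHX, at 126, 124 and 134 CPM in EV_mChx and at 122, 121 and 139 CPM in EV_pChx. Its log2 fold changes were -0.02 ± 0.11 in EV and -0.11 ± 0.11 in TGA4, and those of PRR5 were -0.14 ± 0.17 and -0.09 ± 0.19. With no scaling factors CCA1 was called lower in EV (-0.30) and in TGA4 (-0.44). PRR5 (-0.42) and LHY (-0.36) were then called lower in EV. The median of all genes moved to -0.30 in EV and -0.34 in TGA4 in that setting. Of 26 further clock genes tested, 9 rose and 3 fell in EV, and 9 rose and 2 fell in TGA4, shares near the 48.1% and 45.9% of all genes called. BOA, the closest relative of LUX, went the other way from LUX, from 6.21 ± 0.969 CPM in EV_mChx to 42.7 ± 2.33 CPM in EV_pChx (SD, n = 3; log2 fold change 2.78 ± 0.19) and by 2.70 ± 0.22 in TGA4. TCP21, also named CHE, a TF that binds the CCA1 promoter, was at 1.55 ± 1.35 CPM without and at 9.41 ± 1.95 CPM with CHX in EV. Its level without CHX was near the floor, as 3 counts were worth 0.54 to 1.07 CPM in the EV_mChx libraries. LNK4 in EV (2.20 ± 0.34) and RVE7 in TGA4 (2.01 ± 0.38) were also among the largest changes. Of the 9 output genes 3 rose and 3 fell in EV, and CDF5, a DOF factor like CDF1, fell from 61.9 ± 12.9 to 26.2 ± 0.777 CPM. The summed root markers were at 190 to 206 CPM in EV_mChx and 181 to 200 CPM in EV_pChx, with none of the 8 tested called, and at 125 to 148 CPM in TGA4_mChx and 107 to 139 CPM in TGA4_pChx, with 2 called lower. The summed green markers rose with no overlap, from 6.12 to 14.6 CPM in EV_mChx to 20.3 to 30.2 CPM in EV_pChx and from 7.49 to 9.27 CPM in TGA4_mChx to 20.6 to 31.02 CPM in TGA4_pChx, and CA1 was the green marker called. The part of these markers in the clock gene values was not tested.

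**Figure D3:**
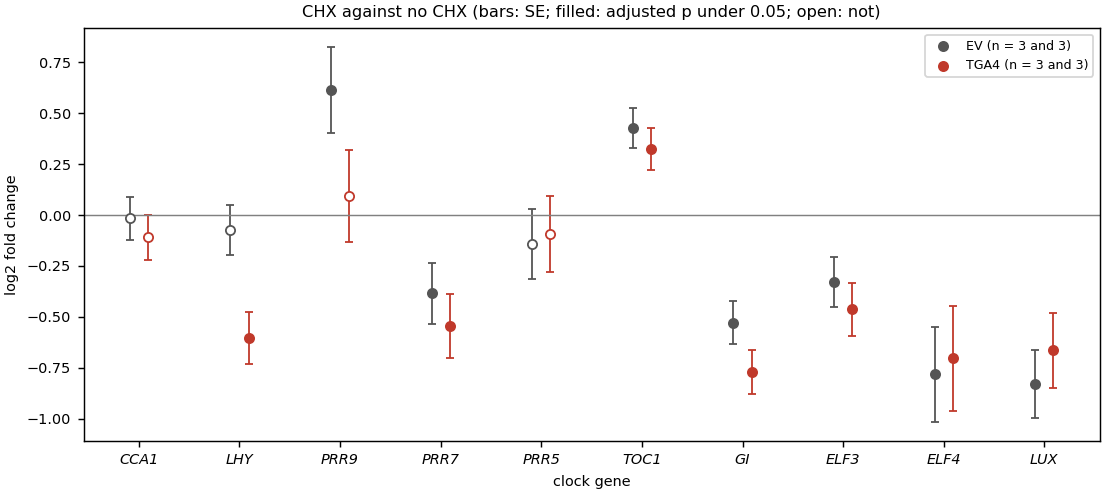
Log2 fold change with CHX against without (vertical axis) for each clock gene (horizontal axis) in EV and in TGA4 protoplasts. Bars are the SE, and filled points passed an adjusted p of 0.05. GI, ELF4 and LUX lie below 0 and TOC1 above 0 in both vectors.

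Ratios of counts within a library do not depend on the scaling of libraries. The CCA1 to TOC1 ratio of morning to evening transcript was 0.0777 to 0.108 in Root_0N and 0.0332 to 0.04997 in Root_60N, with no overlap. It was 0.407 to 0.658 in Protoplast_0N and 0.453 to 0.714 in Protoplast_60N, where the groups overlapped. In the CHX experiment it was above 1 in each library without CHX (1.06 to 1.18 in EV_mChx and 1.03 to 1.19 in TGA4_mChx) and below 1 in each library with it (0.748 to 0.868 in EV_pChx and 0.740 to 0.895 in TGA4_pChx). The ELF4 to TOC1 ratio was 0.437 to 0.589 in Root_0N and 0.563 to 0.673 in Root_60N, and 0.0315 to 0.0689 in the libraries labelled Protoplast. With CHX it fell from 0.0995 to 0.164 in EV_mChx to 0.0564 to 0.0610 in EV_pChx. The CCA1 to LHY ratio spanned less, between 0.834 and 1.56 in whole roots and between 1.48 and 1.89 in the libraries labelled Protoplast.

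**Figure D4:**
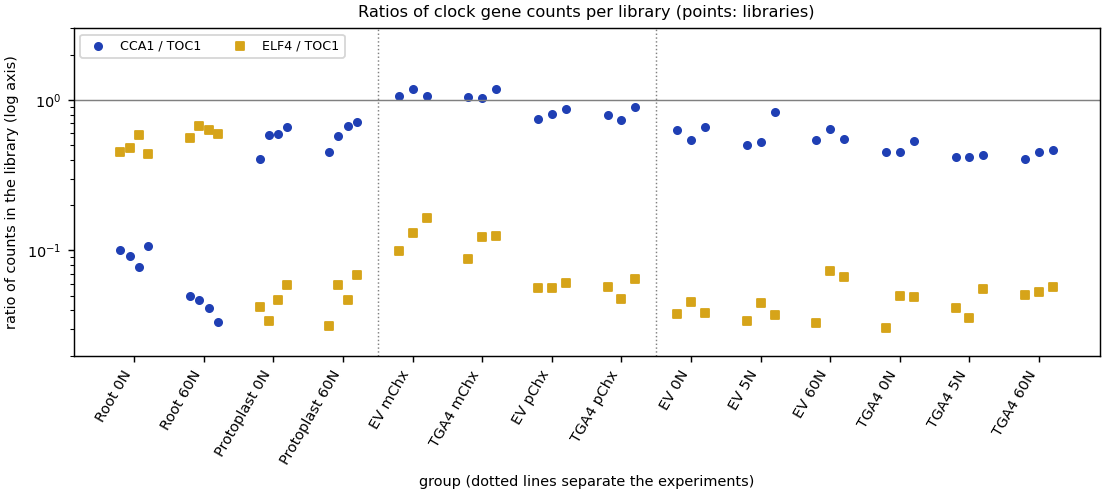
Ratio of the counts of CCA1 (circles) and ELF4 (squares) to those of TOC1 in each library (log vertical axis), by group; dotted lines separate the experiments. In the CHX experiment CCA1 exceeds TOC1 in each library without CHX and in none with it, and in the root and protoplast experiment the ELF4 ratio is higher in whole roots.

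Lastly, the TGA4 vector was compared with EV, where TOC1 and LHY were the members called. In the N-dose experiment TOC1 alone was called, 1.25-fold higher at 0N (8.86% of 18342 genes called, 5.74% higher and 3.13% lower) and 1.28-fold higher at 60N (7.74% called, 5.21% higher and 2.52% lower). At 0N it was at 168, 173 and 155 CPM in EV and at 206, 206 and 207 CPM in TGA4 (log2 fold change 0.32 ± 0.09, adjusted p = 0.0337). At 60N it was at 174, 165 and 173 CPM in EV and at 228, 215 and 212 CPM in TGA4 (0.35 ± 0.09, adjusted p = 0.0192). At 5N it was at 180, 172 and 186 CPM in EV and at 215, 223 and 195 CPM in TGA4, and no member was called (0.23 ± 0.09, adjusted p = 0.144; 7.89% of genes called). There 3 members had an unadjusted p under 0.05 (CCA1, PRR7 and TOC1), and DESeq2 called TOC1 (adjusted p = 0.0403). In scaled CPM the 9 TGA4 libraries were thus all above the 9 EV libraries in TOC1. By the methods the wells of each vector were split from the same transfected cells, so this cannot be told apart from a difference between transfections. The fold changes kept their size when any 1 library was left out, at 0.27 to 0.35 at 0N and 0.32 to 0.38 at 60N, but the call at 0N was lost without any one of the 6 libraries compared, and the one at 60N without EV_60N replicate 2, TGA4_60N replicate 1 or TGA4_60N replicate 2. With no scaling factors the 0N value was 0.11 (adjusted p = 0.413), where the median of all genes moved from -0.03 to -0.24, and relative to that median TOC1 stood at 0.35 in both. A shift of all genes alike fixes that last value, so the size of the TOC1 change rests on the scaling. So does the separation of the 9 libraries of each vector, whose scaling factors were 0.98 to 1.14 in EV and 0.90 to 0.99 in TGA4. Single libraries also gave calls to LHY at 0N (0.39 without EV_0N replicate 1), GI at 5N (0.45 without EV_5N replicate 3) and LUX at 60N (0.58 without EV_60N replicate 2). The TGA4 effect was not called to depend on N for any member by edgeR or DESeq2 (0% of all genes by edgeR, and PRR7 alone had an unadjusted p under 0.05).

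In the CHX experiment TOC1 was not called in either CHX state (0.18 ± 0.10 without and 0.08 ± 0.10 with CHX). By the methods EV_pChx and TGA4_pChx had the N, CHX and DEX treatment of EV_60N and TGA4_60N, where TOC1 was called (0.35 ± 0.09). Under CHX here, the TOC1 ranges of the vectors overlapped (adjusted p = 0.828), so the rise at 60N was not called again. The difference between the experiments was not tested. LHY was the member called without CHX, at 98.7, 73.9 and 78.3 CPM in EV_mChx and at 112, 131 and 123 CPM in TGA4_mChx. The TGA4 libraries were all higher, by 1.47-fold (log2 fold change 0.55 ± 0.12, adjusted p = 0.00871; 5.88% of genes called, 2.91% higher and 2.97% lower), and the call was lost without EV_mChx replicate 2 (0.47) or TGA4_mChx replicate 2 (0.50). With CHX, LHY was at 82.6, 71.5 and 82.5 CPM in EV_pChx and at 88.2, 73.7 and 79.8 CPM in TGA4_pChx, with overlap (0.02 ± 0.13). No member was called with CHX by edgeR or DESeq2 (1.92% of genes called by edgeR), and none had an unadjusted p under 0.05. Beside these, 3 of 8 root markers tested were lower in TGA4 than in EV without CHX and 3 with CHX, and their sum was below EV in every TGA4 library of both CHX states. In the N-dose experiment 1 of 8 was lower at 0N and 1 at 5N, and the sums did not overlap at any dose. They were 131 to 147 CPM in EV_0N and 94.8 to 113 CPM in TGA4_0N, 111 to 134 CPM and 80.3 to 96.9 CPM at 5N, and 122 to 139 CPM and 98.0 to 111 CPM at 60N. The green sums, nearly all CA1, were higher with TGA4 at 0N (113 to 160 CPM in EV and 165 to 194 CPM in TGA4) and 5N (115 to 152 CPM and 174 to 185 CPM) and overlapped at 60N, with no green marker called. Their part in the values was not tested. The wider clock list, with 26 members past the filter, gave 1 call for TGA4 against EV at 0N, 2 at 5N and 2 at 60N. These shares were no higher than the 8.86%, 7.89% and 7.74% called among all genes at those doses. Of these calls, TIC, which encodes a nuclear clock regulator, was lower with TGA4 at 0N (-0.65 ± 0.19) and 5N (-0.70 ± 0.20). COR28, a cold-regulated repressor of clock genes, was higher at 5N (0.69 ± 0.16) and 60N (0.69 ± 0.15), and TCP21 was lower at 60N (-0.98 ± 0.18). The comparisons of the N-dose experiment use different EV libraries at each dose. By the methods, however, the wells of a vector at all doses were split from the same transfected cells. The doses are therefore not separate tests of TGA4.

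**Figure D5:**
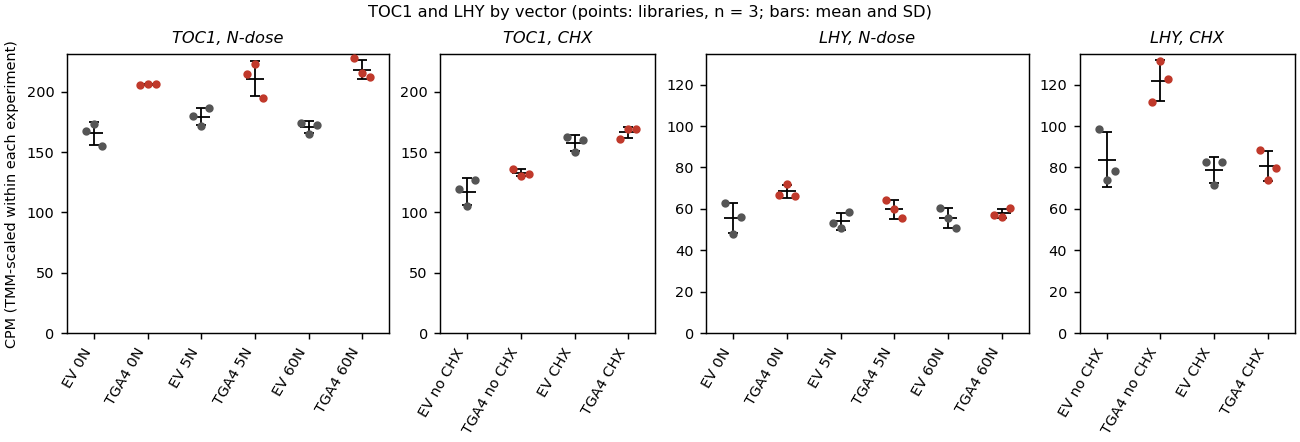
CPM (vertical axes, each from 0) of TOC1 and LHY by vector and treatment in the N-dose and the CHX experiment. Points are libraries (n = 3 per group) and bars are the mean and SD. In scaled CPM, TOC1 is higher in each TGA4 library than in each EV library of the N-dose experiment, and LHY is higher with TGA4 in the CHX experiment without CHX.

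N dose moved no clock gene past the threshold in these CHX-treated cells. By edgeR and by DESeq2, 0 of the 10 were called for 5N against 0N in EV (1.59% of genes called by edgeR), 60N against 0N in EV (3.59%), 60N against 5N in EV (0.0818%), and the same contrasts in TGA4 (0.273%, 3.03% and 0%). At an unadjusted p under 0.05 the counts of members in that order were 0, 2, 2, 0, 4 and 2. ELF4 and LUX had the largest changes for 60N against 0N in EV. ELF4 was at 6.32, 7.91 and 6.01 CPM in EV_0N and at 5.75, 12.1 and 11.5 CPM in EV_60N (log2 fold change 0.55 ± 0.23, adjusted p = 0.225). LUX was at 18.6, 23.1 and 18.3 CPM in EV_0N and at 20.2, 33.7 and 24.0 CPM in EV_60N (0.39 ± 0.15, adjusted p = 0.183). EV_60N replicate 1 was the lowest 60N library in both genes, within the 0N range for LUX and below it for ELF4. Without it ELF4 (0.81, adjusted p = 0.0172) and LUX (0.54, adjusted p = 0.0323) were called. In TGA4 cells LUX was at 21.1, 24.8 and 25.7 CPM at 0N and at 35.8, 31.5 and 31.4 CPM at 60N, with no overlap and no call (0.46 ± 0.15, adjusted p = 0.108). None of the 26 further clock genes tested was called for N in either vector, and of the output genes CDF1 rose (1.38 ± 0.25) and COL2 fell (-0.72 ± 0.18) for 60N against 0N in TGA4.

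Across the 14 group means, taken on the log2 scale and centred within each experiment, the members were compared with each other as a description of 14 points, which share libraries, scaling and, within an experiment, cells. CCA1 correlated with LHY (Pearson r = 0.99), PRR9 (0.96), PRR5 (0.85) and TOC1 (0.81), and inversely with ELF4 (-0.88). PRR7 followed ELF3 (0.96), ELF4 (0.75) and LUX (0.71). Those of CCA1 rested on the root and protoplast experiment, where its group means ran from 6.40 to 157 CPM, against 89.2 to 112 CPM in the N-dose and 127 to 144 CPM in the CHX experiment. Over the 10 group means of the latter pair alone CCA1 had an r of 0.31 with LHY, 0.01 with PRR9, 0.05 with PRR5, -0.36 with TOC1 and -0.17 with ELF4, and PRR7 kept 0.90 with ELF3, 0.56 with ELF4 and 0.53 with LUX. Among the 16584 genes tested in all experiments, those closest to CCA1 were SAY1, SAUL1 and AT2G20320 (r of 0.999 to 0.997), and those closest to TOC1 were GBF1, CYP710A1 and AT4G33666 (0.988 to 0.985). This ranking used all 14 group means and was not repeated without the root and protoplast experiment.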

How the data were processed

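The deposited files hold whole-number read counts per gene, 1 file per library, which the authors made by aligning reads to TAIR10 with TopHat2 and counting with GenomicFeatures and GenomicAlignments. The annotation version and strand setting are not given in the sources used here. Of the gene IDs, 99.33% (N-dose, root and protoplast) and 99.15% (CHX) matched TAIR10.1. Groups came from the labels. Each experiment was fitted separately with edgeR 4.0.16 (R 4.3.3): TMM scaling, filterByExpr, 1 mean per group, quasi-likelihood test, Benjamini-Hochberg adjustment over all genes tested, threshold 0.05. SEs are the size of the log2 fold change over the root of its F statistic. The study fitted a batch term, but the labels give no batch, so none was fitted. Replicates are samples that the labels separate, and p-values measure the spread between them, which may be technical. Alternatives were RLE, DESeq2 1.42.0, no filter, a replicate block, the compared groups alone, leaving out each library and, added after seeing the data, no scaling factors. Code was tested on simulated data. All 10 members are named, and of each further list up to 3 called genes with the largest change per comparison. For CCA1 and TOC1 the 3 genes of most similar pattern (log2 of CPM plus 1) are named. Members and lists were chosen with earlier results of these data known.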

Additional observations from a re-analysis of the deposited data

Results flagged for a closer look

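Of 40 gene and group sets of 4 libraries in the root and protoplast experiment, 3 held a library far from the others (gap over range above Dixon's critical value), and chance gives about 1 in 20. LHY was at 3.76 CPM in Root_60N replicate 4 against 5.30 to 5.61 CPM in the others. PRR9 was at 20.5 CPM in Root_60N replicate 1 against 11.9 to 12.9 CPM. TOC1 was at 308 CPM in Protoplast_0N replicate 2 against 268 to 274 CPM.

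The response to 60N differed between the libraries labelled Protoplast and whole roots for 7 clock genes by an interaction term in edgeR's quasi-likelihood test. The difference in log2 fold change, protoplast minus root, was -1.01 for PRR9, -1.03 for PRR7, -1.10 for TOC1, 0.55 for GI, -1.03 for ELF3, -1.21 for ELF4 and -0.54 for LUX.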

How the results depend on the processing

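Of the alternatives to the 20 counts of members called, 253 gave a count within 1.5 times the one reported and 20 did not. For single members 786 alternatives kept direction and call, 20 gained a call, 48 lost one and 13 turned the sign, beside 51, 7, 4 and 5 without scaling factors, a setting that shifts all genes alike. TGA4 against EV at 0N gave 0 members without the filter (0 to 1 with a library left out), at 5N 1 with DESeq2 (0 to 1), and at 60N 0 without scaling factors, without the filter or with the compared groups alone (0 to 1). Without CHX the range with a library left out was 0 to 1, for 60N against 0N in EV 0 to 2, and for CHX in EV 4 to 7. With the compared groups alone, 60N against 0N in TGA4 gave 1 (LUX) and 60N against 5N in TGA4 gave 1 (PRR7). CHX in EV turned CCA1 to 0.0341 with RLE, 0.0335 with DESeq2 and 0.0294 with the compared groups alone (-0.0805 to 0.0173 with a library left out), and LHY ranged from -0.157 to 0.0498. CHX in TGA4 turned TOC1 to -0.00337 without scaling factors. Protoplast against root at 0N turned PRR7 to 0.0177 without the filter (-0.0979 to 0.145 with a library left out), and without scaling factors PRR5 to -0.0759 and ELF3 to -0.77. At 60N it turned PRR5 to -0.28 and TOC1 to -0.0842 without scaling factors, and GI ranged from -0.130 to 0.0221. The turns without scaling factors go with the shift of the median of all genes, relative to which these genes kept their values. A shift of all genes alike keeps them by construction, so this does not show which scaling holds. The cause of the other turns was not tested.

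Replicate numbers did not pair the samples, with a mean correlation of same-numbered deviations of 0.03, 0.04 and -0.01 in the N-dose, CHX and root and protoplast experiments. With the replicate block the members called were 9 in roots for N, 7 and 7 for CHX in EV and TGA4, 1 each for TGA4 at 0N, 60N and without CHX, 8 and 9 for protoplast against root at 0N and 60N, 7 for the interaction with N, and 0 in the others.

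Counts over all genes moved more. With a library left out they ranged from 31 to 460 for 5N against 0N in EV, 131 to 1004 for 60N against 0N in EV, 1 to 280 for 60N against 5N in EV, 15 to 32 and 113 to 527 for 5N and 60N against 0N in TGA4, 109 to 518 and 551 to 955 for TGA4 with and without CHX (358 and 1098 reported), and 274 to 492 for N in libraries labelled Protoplast. For 5N against 0N in EV 292 genes became 718 without the filter, 698 with DESeq2 and 56 with the compared groups alone, and for 60N against 0N in EV 659 became 1004 without the filter and 35 with the groups alone. For 60N against 5N in EV 15 became 173, 107 and 0, and 25 with the block. In TGA4, 50 became 89, 79 and 116 for 5N against 0N, 556 became 880, 899 and 2042 for 60N against 0N, and 0 became 104, 103 and 820 for 60N against 5N. The vector by N interaction went from 0 to 1 without the filter and 4 with DESeq2, vector by CHX from 24 to 131 and 42, TGA4 with CHX from 358 to 689 without the filter and 541 with the block, TGA4 at 0N from 1626 to 2922 without scaling factors, and TGA4 at 5N from 1448 to 939 with the groups alone. N in libraries labelled Protoplast went from 506 to 776 without scaling factors and 1008 with DESeq2. Depth limits low genes most in the CHX experiment.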
